A study of Mus musculus with 48 samples.

Results

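The 10 granule neuron progenitor genes Atoh1, Barhl1, Neurod1, Nhlh1, Zic1, Zic2, En1, En2, Fat2 and Mfap4 were followed in mouse tumors that model Group 3 medulloblastoma, a cerebellar cancer of children, by extra Myc. They were picked out by symbol, with earlier results of these data known, and are 10 of the 34591 genes counted. All 10 had a row in each of the 48 libraries. Tumorsphere cells carrying extra Myc were infected with retroviruses, sorted for red and green fluorescence, expanded, and grown as tumors in the cerebral cortex of nude mice (CD-1 nu/nu). The labels name RNA of tumorsphere cells and of tumor pieces without saying which library held which. The 13 groups were labelled as follows. In a first series of libraries (set 1), lines 19251, 19554 and 19568 each had 3 libraries with a Cas9 vector alone and 3 with Ezh2 knocked out (Ezh2 KO). In a second series (set 2), line 19568 had 3 libraries each of Cas9, Ezh2 overexpression (Ezh2 OE, with Cas9), Ezh2 KO, and both together (Ezh2 KO + Ezh2 OE, here called the rescue). Line 19251 also had 6 control libraries and 8 with Gfi1 overexpression (Gfi1 OE). These 44 libraries are labelled p53-/-;p18-/-, so that the controls carry both deletions and Myc too. The other 4, labelled WT GNP Myc Gfi1, are given as granule neuron precursors of a wild-type background, while their titles say tumor; they are called the WT-labelled libraries below. The labels give no animal age, and they do not say whether the libraries of a group came from separate animals, so that p-values measure the spread between these libraries. Set 1 and set 2 are names used here for libraries that share a number in their titles.

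Granule neurons arise from the upper rhombic lip of the hindbrain, whose progenitors switch on Atoh1, divide in the outer layer of the cerebellum under Sonic hedgehog signals, and then leave the cycle and migrate inward. Atoh1 is a basic helix-loop-helix (bHLH) factor without which these progenitors do not form, and Barhl1 is a homeobox factor that follows it. Neurod1 and Nhlh1 are bHLH factors of cells that leave the cycle and differentiate. Zic1 and Zic2 are zinc finger factors of the dorsal neural tube, kept on in the granule lineage, and Zic1 is also found in the meninges. En1 and En2 are homeobox factors that pattern the midbrain and anterior hindbrain. Fat2 is a large cadherin known in the cerebellum from granule cells, and Mfap4 is a secreted matrix glycoprotein that is also made in connective tissue.

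Library depth ran from 2687641 to 94733334 counts on genes, with a median of 29416586, and levels are given as CPM, each gene's count scaled to that total. Ezh2 RNA in set 2 stood at 46.9 to 55.7 CPM in the Ezh2 KO libraries and 91.9 and 93.5 CPM in Cas9. In set 1 it was lower in every Ezh2 KO library than in every Cas9 library of line 19568 (38.0 to 48.7 against 68.0 to 83.4 CPM), while the arms overlapped in lines 19251 and 19554. Gfi1 RNA reached 107 to 592 CPM in the Gfi1 OE libraries and 0 to 0.274 CPM in their controls. The 4 WT-labelled libraries held 0.232 to 0.829 CPM of Gfi1, which goes against the Gfi1 in their label. Ezh2 stood at 5128 CPM in the library labelled 19568 Cas9 set 2 replicate 1, and at 101 CPM in that labelled rescue replicate 3. In both the number in the title contradicts that of the file, and the main fits leave both out. A run with all 12 libraries as labelled counts the library with 5128 CPM of Ezh2 as Cas9. The library labelled 19251 Cas9 replicate 1 stood apart, with Myc at 9.91 CPM against 315 and 738 CPM in the other Cas9 libraries of its line. Its 9 Purkinje and inhibitory neuron markers summed to 3252 CPM against 7.97 and 16.04 CPM, and its 4 astrocyte markers to 2827 CPM against 174 and 250 CPM. Values without it are given beside the comparisons of set 1. These are bulk samples, in which fewer cells of a type and less RNA per cell cannot be told apart.

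Promoter sequences of 5 members are shown first, since much of the text sets Atoh1 and Barhl1, Neurod1 and Nhlh1, and Fat2 beside each other. They are RefSeq windows of build GRCm38.p6 from 250 bases before to 50 bases after the gene start, read 5′ to 3′ on the gene's strand. Capitals mark every match to the E-box CANNTG, the 6-base site that bHLH factors bind, searched on both strands.
Atoh1, chr6:64728875-64729174, plus strand: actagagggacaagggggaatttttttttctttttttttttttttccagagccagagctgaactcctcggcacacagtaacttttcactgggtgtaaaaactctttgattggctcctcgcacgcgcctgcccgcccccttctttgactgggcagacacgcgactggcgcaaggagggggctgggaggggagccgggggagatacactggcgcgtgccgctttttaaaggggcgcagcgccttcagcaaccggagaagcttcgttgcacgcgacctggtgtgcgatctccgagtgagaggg
Barhl1, chr2:28916619-28916918, minus strand: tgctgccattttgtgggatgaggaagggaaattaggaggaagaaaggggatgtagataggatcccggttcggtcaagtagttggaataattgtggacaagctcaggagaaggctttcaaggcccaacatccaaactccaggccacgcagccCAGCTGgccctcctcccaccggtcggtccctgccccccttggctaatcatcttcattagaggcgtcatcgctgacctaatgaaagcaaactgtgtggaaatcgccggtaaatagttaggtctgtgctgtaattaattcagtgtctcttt
Neurod1, chr2:79456587-79456886, minus strand: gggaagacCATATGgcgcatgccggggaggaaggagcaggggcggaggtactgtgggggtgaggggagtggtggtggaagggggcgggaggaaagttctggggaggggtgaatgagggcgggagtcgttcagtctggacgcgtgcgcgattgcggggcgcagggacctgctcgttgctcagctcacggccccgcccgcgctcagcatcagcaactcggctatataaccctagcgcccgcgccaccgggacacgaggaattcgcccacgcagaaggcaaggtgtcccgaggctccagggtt
Nhlh1, chr1:172057547-172057846, minus strand: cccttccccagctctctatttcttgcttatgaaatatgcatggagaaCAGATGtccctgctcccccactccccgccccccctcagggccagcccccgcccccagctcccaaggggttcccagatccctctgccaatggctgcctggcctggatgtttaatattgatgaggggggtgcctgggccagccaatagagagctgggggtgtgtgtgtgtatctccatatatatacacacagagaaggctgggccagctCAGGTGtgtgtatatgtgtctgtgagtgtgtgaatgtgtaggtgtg
Fat2, chr11:55312208-55312507, minus strand: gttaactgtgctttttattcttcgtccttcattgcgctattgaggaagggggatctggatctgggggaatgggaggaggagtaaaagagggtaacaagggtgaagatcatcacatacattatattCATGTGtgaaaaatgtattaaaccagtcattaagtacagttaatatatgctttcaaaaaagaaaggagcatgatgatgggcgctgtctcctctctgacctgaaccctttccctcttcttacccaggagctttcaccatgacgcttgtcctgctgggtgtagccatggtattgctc

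The Atoh1 window held 20 CpG pairs and 0 E-boxes, and the Neurod1 window 26 CpG pairs and 1 E-box. Nhlh1 and Fat2 had few CpG pairs, with 2 and 4, beside 2 E-boxes and 1 E-box. The first Barhl1 window held 9 CpG pairs and 1 E-box, which is of the CAGCTG form. A second Barhl1 window, starting at base 28912446 of chromosome 2, held 14 CpG pairs and 2 E-boxes. Zic1 (31 CpG pairs, 1 E-box) and En1 (23 CpG pairs, 3 E-boxes) were matched as well, so that 7 of the 10 members had 8 windows. Over all 32544 mouse windows the median was 7 CpG pairs, 72.3% held a CANNTG and 16.4% a CAGCTG, so that an E-box in a window of this length is common. Matches to GACCACCCA, the core bound by the GLI factors of Sonic hedgehog signalling, searched on both strands too, were in 0.246% of all windows, and matches to the core bound by Gfi1 in 0.793%. Neither was in a member's window. A match describes letters only.

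Atoh1 was present in line 19251 and near or at 0 in line 19568 and in the WT-labelled libraries. In line 19251 it stood at 0.114, 65.0 and 9.13 CPM in Cas9 replicates 1, 2 and 3 and at 1.05, 12.4 and 1.01 CPM in Ezh2 KO. The controls of that line ranged from 0.479 to 32.5 CPM (median 3.39) and the Gfi1 OE libraries from 0.147 to 34.0 CPM (median 1.34). The libraries of 1 group thus spread over more than the differences between the groups of this line. Line 19554 held 5.18, 0.117 and 0.0876 CPM in Cas9 and 0.335, 0.508 and 0.239 CPM in Ezh2 KO, so that 1 of its 6 libraries reached 1 CPM. In line 19568, 10 of 16 libraries had 0 counts and 1, Cas9 set 1 replicate 1, reached 1 CPM, at 1.48. All 4 WT-labelled libraries had 0 counts, which over their summed depth allows a level of up to 0.0299 CPM. Floors and intervals of this kind cover counting error only.

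Barhl1 followed the same order of lines. It stood at 0.189, 40.7 and 7.29 CPM in Cas9 and 3.56, 6.19 and 1.27 CPM in Ezh2 KO of line 19251. Line 19554 held 3.36, 0.163 and 0.0438 CPM in Cas9 and 0.183, 0.33 and 0.171 CPM in Ezh2 KO. None of the 16 libraries of line 19568 reached 1 CPM and 10 of them had 0 counts. The library with most Atoh1 in each of these arms of lines 19251 and 19554 was also the one with most Barhl1, as the plot of library pairs shows. The Gfi1 OE libraries broke this pattern. There Barhl1 lay between 0.0734 and 0.937 CPM in all 8, also in replicate 7, where Atoh1 stood at 34.0 CPM and Barhl1 at 0.897 CPM.

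Neurod1 and Nhlh1, the factors of differentiating cells, were abundant in most set 1 libraries of lines 19251 and 19554 alike. The controls of line 19251 ranged from 0.658 to 62.9 CPM of Neurod1 (median 4.69) and from 0.520 to 62.6 CPM of Nhlh1 (median 2.14). Its Gfi1 OE libraries ranged from 1.12 to 29.7 CPM (median 6.23) and from 2.42 to 17.4 CPM (median 8.86). Neurod1 stood at 0.643, 53.8 and 56.2 CPM in Cas9 and 241, 30.6 and 141 CPM in Ezh2 KO of line 19251, and at 85.9, 239 and 1.71 CPM and 167, 224 and 2.25 CPM in the same arms of line 19554. Nhlh1 stood at 0.227, 22.3 and 54.0 CPM and 33.6, 11.2 and 41.0 CPM in the arms of line 19251. In line 19554 it was 49.3, 66.0 and 0.789 CPM in Cas9 and 38.8, 54.6 and 0.444 CPM in Ezh2 KO. Replicate 3 of either arm of line 19554 was thus low in both genes, and so was 19251 Cas9 replicate 1. In line 19568, 1 of 16 libraries reached 1 CPM in each gene, and it was the same Cas9 set 1 replicate 1, with 3.84 CPM of Neurod1 and 1.13 CPM of Nhlh1. The WT-labelled libraries held 0 counts of Nhlh1 and 0, 0.0867, 0.228 and 0 CPM of Neurod1.

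**Figure D1:**
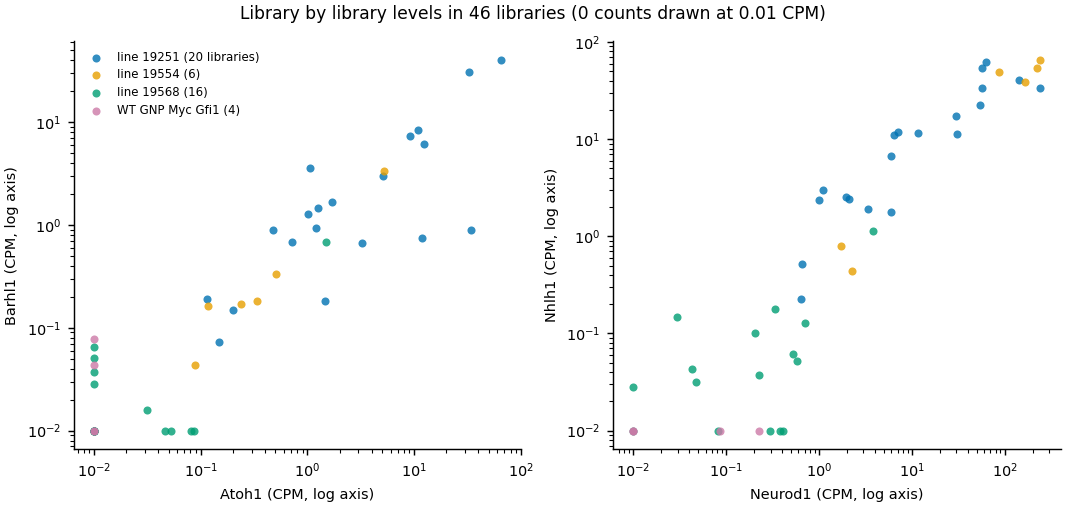
Levels of Atoh1 against Barhl1 and of Neurod1 against Nhlh1 in CPM on log axes, 1 point per library, for the 46 libraries without the 2 of contradicting numbers, coloured by line, with 0 counts drawn at 0.01 CPM. Libraries with 65.0 and 32.5 CPM of Atoh1 hold 40.7 and 30.6 CPM of Barhl1, while the Gfi1 OE library with 34.0 CPM holds 0.897 CPM.

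Zic1 and Zic2 were counted in every library. Zic1 was at 21.7 to 84.1 CPM in Cas9 and 81.9 to 93.5 CPM in Ezh2 KO of line 19251, and at 58.4 to 127 CPM and 46.2 to 55.4 CPM in those of line 19554. In line 19568 it was lower, at 6.84 to 38.0 CPM in Cas9 and 12.4 to 20.4 CPM in Ezh2 KO of set 1, and the WT-labelled libraries held 0.975, 1.99, 4.42 and 2.71 CPM. Zic2 had the narrowest spread between groups, a range of 3.33 in mean log2(CPM + 0.5) over 13 groups. Its lowest library in set 1 stood at 2.00 CPM (19568 Cas9 replicate 3) and its highest at 16.6 CPM (line 19251).

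En1 and En2 parted company in line 19554. En1 stood at 0.151, 7.36 and 7.72 CPM in Cas9 and 6.25, 5.80 and 8.49 CPM in Ezh2 KO of line 19251, but at 0.061, 0.0466 and 0 CPM and 0.061, 0.0762 and 0.0683 CPM in line 19554. Every library of line 19554 was thus under every library of line 19251. En2 stood at 37.0, 26.3 and 3.77 CPM in Cas9 and 26.2, 36.8 and 18.98 CPM in Ezh2 KO of line 19554, inside the range of line 19251 (0.151 to 38.4 CPM). In line 19568 En1 stayed under 1 CPM in all 16 libraries, while En2 reached 1 CPM in 7 of them.

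Fat2 ran the other way from the rest. It was at 1 CPM or more in all 16 libraries of line 19568 and all 4 WT-labelled ones, and in 3 of 20 libraries of line 19251 and 2 of 6 of line 19554. Line 19568 held 3.91, 51.4 and 22.2 CPM in Cas9 and 94.7, 193 and 25.4 CPM in Ezh2 KO of set 1, and the WT-labelled libraries held 340, 235, 273 and 174 CPM. The highest library outside these was 19554 Cas9 replicate 3, at 17.96 CPM, which is also the Cas9 library of its line that was low in Neurod1 and Nhlh1. Mfap4 varied within groups, from 31.8 to 61.5 CPM in 19251 Cas9 replicates 2 and 3 and from 56.3 to 238 CPM in 19251 Ezh2 KO, with 0.492 CPM in Cas9 replicate 1.

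**Figure D2:**
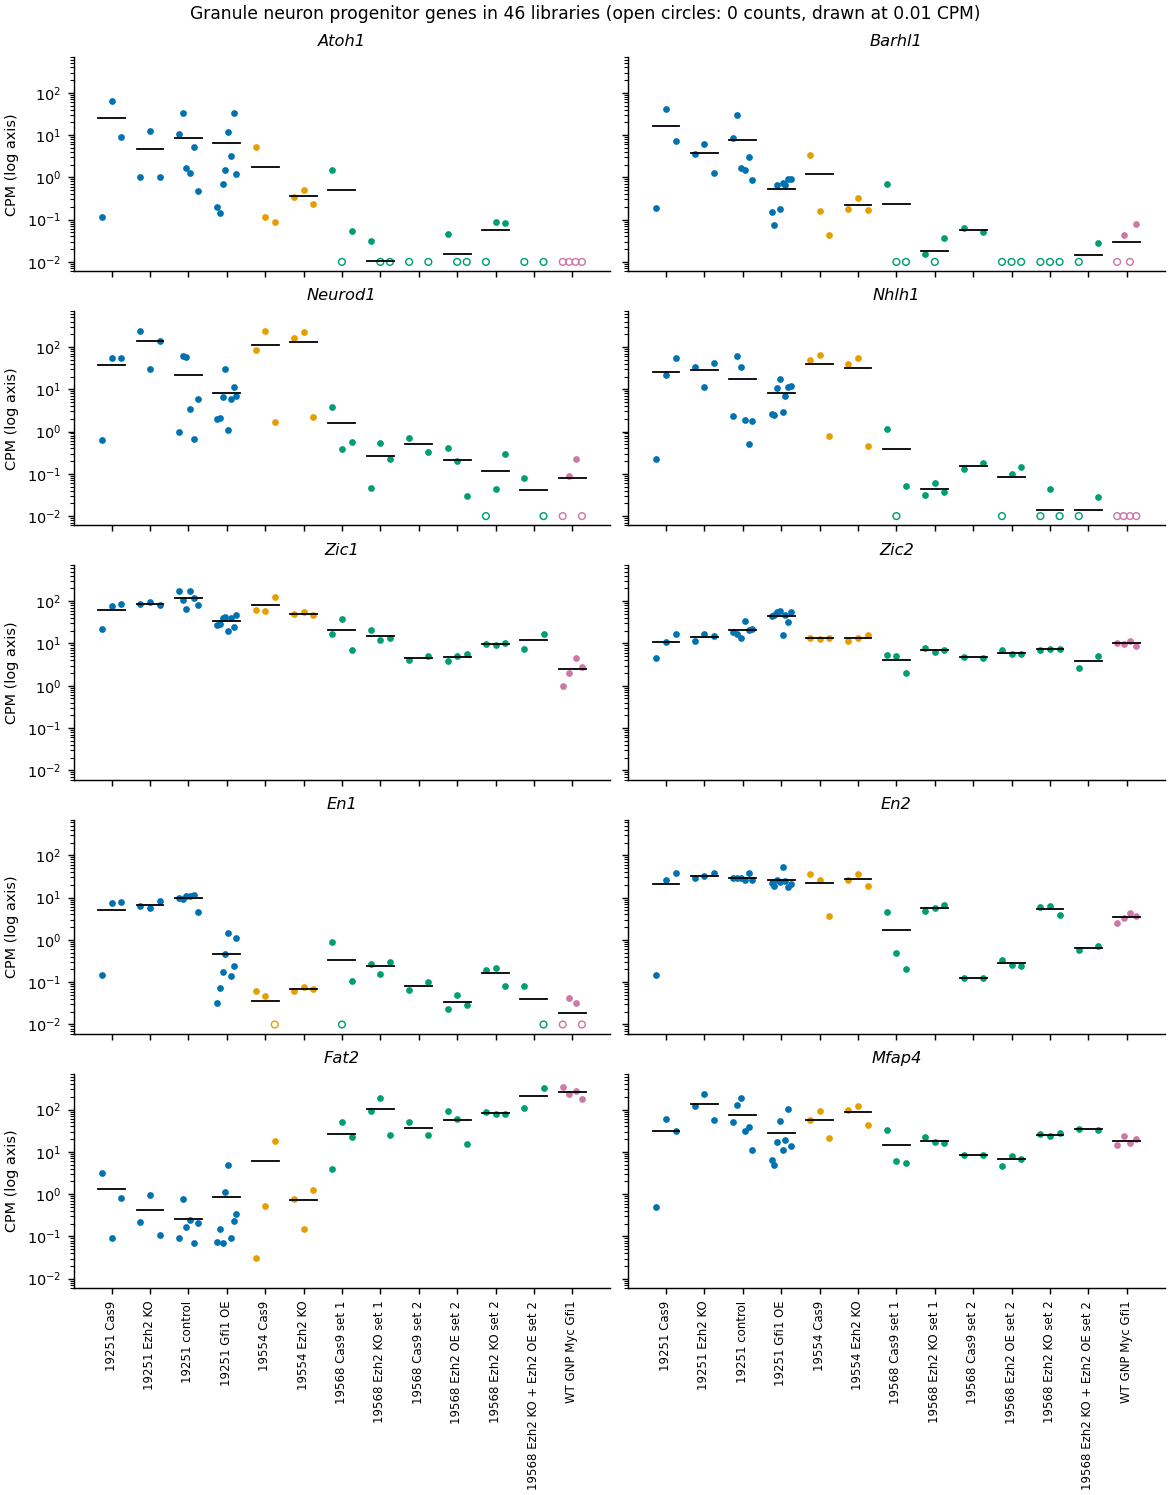
Level of each member in CPM (log axis) by group, 1 point per library for 46 libraries, with a bar at the group mean, colours for the lines, and open circles at 0.01 CPM for 0 counts. Atoh1, Barhl1, Neurod1, Nhlh1 and En1 are near or at 0 in line 19568 and in the WT-labelled libraries, in which Fat2 stands at 174 to 340 CPM.

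The lines were compared over both arms of set 1, with the arm as a term. Line 19568 differed from line 19251 in 9 of the 10 members (edgeR's quasi-likelihood test, adjusted p under 0.05 over all genes), 8 lower and Fat2 higher, beside 9.14% of all genes tested. The median log2 change of the members was -3.57, against -0.11 for all genes. Nhlh1 showed a log2 difference of -7.07 ± 1.51 (SE, edgeR adjusted p 0.00813), Barhl1 -6.45 ± 1.36 (0.00759), Neurod1 -6.41 ± 1.55 (0.0164) and Atoh1 -6.22 ± 1.54 (0.0189). En1 followed at -4.23 ± 0.84 (edgeR adjusted p 0.00505), En2 at -2.90 ± 0.87 (0.0466), Zic1 at -2.02 ± 0.39 (0.00407) and Zic2 at -1.14 ± 0.28 (0.0179). Fat2 was higher by 6.68 ± 1.59 (edgeR adjusted p 0.0152), and Mfap4 did not pass at -1.98 ± 0.77 (0.121). Fat2 was also the only member whose libraries did not overlap between these lines, a count not set against all genes. Without 19251 Cas9 replicate 1 all 10 members passed, Mfap4 at -2.30 (edgeR adjusted p 0.00945), and 3516 genes in place of 1692. The other library with unusual members, 19568 Cas9 set 1 replicate 1, moved the difference of Atoh1 to -8.62 when left out (edgeR adjusted p 0.00942), and 8 members then passed. The lines were also compared within 1 arm, 3 libraries against 3, in a fit that still took its spread from all 18 libraries. In the Cas9 arm 0 members passed, beside 557 genes, and in the Ezh2 KO arm 1 did, beside 433 genes. With limma-voom 6 members passed, and the calls of Nhlh1 (adjusted p 0.0673), Neurod1 (0.125) and En2 (0.138) were lost. The call of En2 was lost in 20 of 26 other settings.

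Against line 19554, line 19568 differed in 6 of 10 members, 5 lower and 1 higher, beside 10.7% of all genes, with a median of -2.34 for the members and -0.05 for all genes. Nhlh1 was lower by a log2 difference of -7.50 ± 1.53 (edgeR adjusted p 0.00528), Neurod1 by -7.00 ± 1.54 (0.00848), Zic1 by -1.91 ± 0.38 (0.00464) and Zic2 by -1.33 ± 0.28 (0.00651). For Zic1 and Zic2 every library of line 19568 was under every library of line 19554. En2 at -2.92 ± 0.87 (edgeR adjusted p 0.0421) and Fat2 at 4.96 ± 1.54 (0.0493) passed narrowly and were each lost in 19 of 26 other settings. With limma-voom Nhlh1 (adjusted p 0.0585) and Neurod1 (0.0996) did not pass, and 3 members did. Atoh1 at -2.59 (edgeR adjusted p 0.254), Barhl1 at -2.69 (0.178), Mfap4 at -2.09 (0.0884) and En1 at 2.36 (0.0947) did not pass. Without 19251 Cas9 replicate 1, 8 members passed, adding Mfap4 (edgeR adjusted p 0.0091) and En1 (0.0205). Lines 19554 and 19251 differed in 1 member, En1, lower in every library of 19554, with a log2 difference of -6.60 ± 0.96 (edgeR adjusted p 0.00744), beside 0.529% of all genes. Without 19251 Cas9 replicate 1 the change of En1 was -6.85 (edgeR adjusted p 0.000203), it was again the 1 member called, and 286 genes passed in place of 98. Atoh1 at -3.63 ± 1.34 (edgeR adjusted p 0.189) and Barhl1 at -3.76 ± 1.17 (0.143) did not pass there, but did with DESeq2 (adjusted p 0.0458 and 0.0145). The 3 comparisons share libraries, and each line has a number of its own in the titles, so that line and whatever the number stands for cannot be told apart. Myc RNA also differed, at a mean of 195 CPM in line 19568 and 820 CPM in line 19554 (edgeR adjusted p 0.0434).

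Other genes of the granule lineage and of the Sonic hedgehog pathway moved with the lines. Of 15 further granule lineage genes, 6 were lower in line 19568 than in line 19251 and 0 higher, with a median of -1.47. The largest differences were those of Olig3, a bHLH factor of the rhombic lip (-10.41 ± 2.05, edgeR adjusted p 0.00477), Nhlh2, the close relative of Nhlh1 (-7.13 ± 1.73, 0.0168), Insm1, a zinc finger factor of newborn neurons (-6.27 ± 1.36, 0.00878), and Barhl2 (-4.19 ± 1.22, 0.0404). Against line 19554, 5 of the 15 were lower and 0 higher, led by Olig3 (-10.34) and Nhlh2 (-7.74). Of 10 tested genes of maturing granule neurons 1 was lower in line 19568 than in 19251, Cbln1, a secreted synaptic protein of granule cells (-3.77 ± 0.93, edgeR adjusted p 0.0179), and 0 differed from line 19554. Of 8 Sonic hedgehog target genes, 6 were higher than in line 19251 and 4 higher than in line 19554. Gli1, the transcription factor read as the pathway's output, averaged 388 CPM in line 19568, 1.62 CPM in line 19251 and 7.63 CPM in line 19554 (log2 differences 7.95 ± 0.66 and 5.65 ± 0.59, edgeR adjusted p 1.81e-06 and 1.85e-05). Ptch1, the receptor of the ligand, averaged 694, 43.2 and 60.0 CPM, and Hhip, which binds the ligand, 277, 10.4 and 11.2 CPM. Between lines 19554 and 19251, 0 of the 15 granule lineage genes, 0 of the 10 maturing genes and 0 of the 8 Sonic hedgehog targets passed (edgeR). The lists were chosen with earlier results of these data known. The 8 fibroblast and mural cell markers, all present, moved with the lines too: they summed to 1106 to 2819 CPM in line 19568 of set 1, 92.4 to 933 CPM in line 19251 and 123.2 to 1418 CPM in line 19554. Their part in the line differences was not tested.

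**Figure D3:**
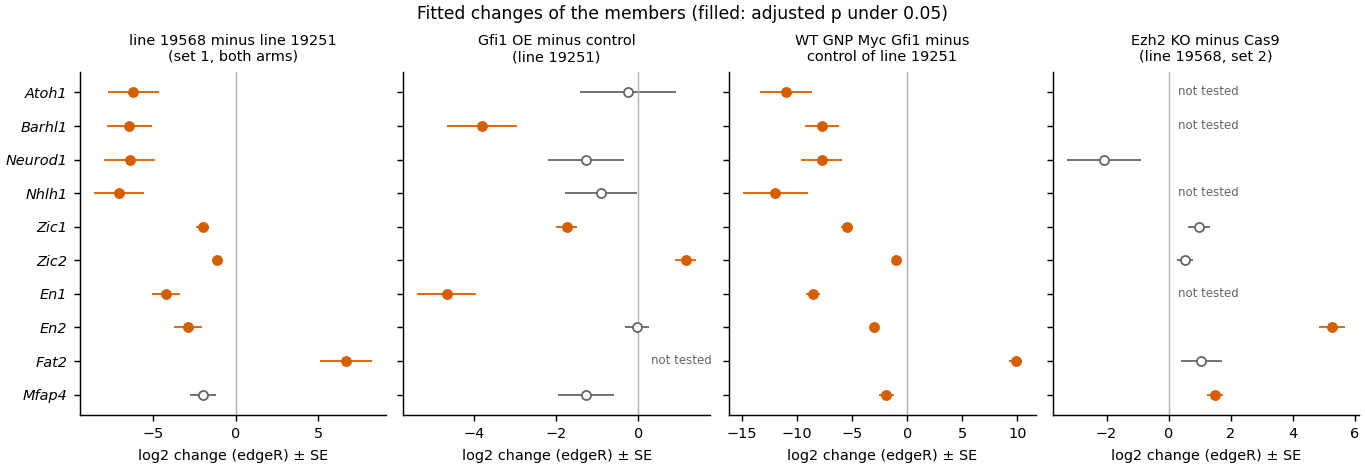
Log2 change (edgeR) with its SE for each member in 4 comparisons, with filled points where the adjusted p is under 0.05. Fat2 lies to the right of 0 in line 19568 against 19251 (6.68) and in WT GNP Myc Gfi1 against control (9.84), where the other called members lie to the left.

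The knockout of Ezh2, the methyltransferase subunit of the PRC2 complex that deposits H3K27me3, was compared with Cas9 over the 18 libraries of set 1. None of the 10 members passed (edgeR, 2 of them at an unadjusted p under 0.05), beside 0.594% of all genes; 0 passed with DESeq2 and 0 with limma-voom. Atoh1 had a log2 change of -2.89 ± 1.10 (p 0.0183, edgeR adjusted p 0.416) and Barhl1 of -2.54 ± 0.95 (p 0.0166, adjusted 0.402). Without 19251 Cas9 replicate 1, 288 genes passed in place of 110 and again 0 members, with Atoh1 at -3.08 (edgeR adjusted p 0.145) and Barhl1 at -2.77 (0.122). Within lines 19251, 19554 and 19568, 0 members passed in each, beside 0.259%, 0.481% and 0.027% of all genes, and 0 had an unadjusted p under 0.05 (0 with DESeq2 and 0 with limma-voom). These fits took their spread from all 18 libraries. With the libraries of each line fitted alone, 0, 29 and 179 genes passed in the same order, and again no member. In line 19251 Mfap4 stood at 0.492, 61.5 and 31.8 CPM in Cas9 and 121, 238 and 56.3 CPM in Ezh2 KO (log2 change 2.09 ± 1.07, edgeR adjusted p 0.333), and its change was 1.51 without Cas9 replicate 1 (0.455). The genes called in that line were 48 with that library and 79 without it. Without it those in lines 19554 and 19568 went from 89 to 400 and from 5 to 20. With the replicate number as a block, in which same-numbered libraries of these lines are paired, 17 genes passed in line 19554 and 0 in line 19568, and 0 members in either. In line 19554 Zic1 was lower in every Ezh2 KO library, at 49.0, 55.4 and 46.2 CPM against 63.1, 58.4 and 127 CPM (-0.70 ± 0.52, edgeR adjusted p 0.80). The effect of the knockout was not found to differ between lines for the 10 members (edgeR, lowest adjusted p 0.581, for Fat2; 0 at an unadjusted p under 0.05, 0 with DESeq2 and 0 with limma-voom), beside 0.0162% of all genes.

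En2 in line 19568 gave the clearest difference between the Ezh2 arms, in set 2. In set 1, En2 stood at 4.598, 0.489 and 0.21 CPM in Cas9 and at 4.95, 5.57 and 6.89 CPM in Ezh2 KO. All Ezh2 KO libraries were above all Cas9 libraries, and the change did not pass (1.68 ± 1.22, edgeR adjusted p 1.0). In set 2, from which the 2 doubted libraries are left out, it stood at 0.129 and 0.128 CPM in Cas9 and at 6.18, 6.26 and 3.95 CPM in Ezh2 KO. En2 rose there by a log2 change of 5.27 ± 0.41 (edgeR adjusted p 0.000323). It kept that call in all 17 other settings, with changes from 3.93 to 5.47 and a highest adjusted p of 0.0406, when all 12 libraries were used as labelled.

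Mfap4 rose as well in set 2. It stood at 8.30 and 8.62 CPM in Cas9 and at 25.8, 24.1 and 27.2 CPM in Ezh2 KO, without overlap (log2 change 1.502 ± 0.25, edgeR adjusted p 0.00822). The call was lost without either Cas9 library (adjusted p 0.0785 and 0.0806) and with all 12 libraries as labelled (0.21, adjusted p 0.928). In set 1 the same line held 33.3, 6.09 and 5.31 CPM in Cas9 and 22.4, 16.7 and 15.8 CPM in Ezh2 KO, which overlap. The 8 fibroblast and mural cell markers, all present, summed to 1046 and 1047 CPM in Cas9 and 2434 to 2645 CPM in Ezh2 KO of set 2, and their part in the change of Mfap4 was not tested.

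Altogether 2 of the 6 members tested rose and 0 fell in set 2, beside 9.11% of all genes, with a median of 1.02 for the members and -0.003 for all genes. That share rests on few libraries: 1609 genes were called, against 380 without Cas9 replicate 2 and 237 without Cas9 replicate 3, and 171 genes passed with all 12 libraries as labelled. Zic1 was higher in every Ezh2 KO library (9.90, 9.13 and 10.3 CPM against 4.12 and 5.02 CPM), and so was Zic2 (6.97, 7.59 and 7.36 CPM against 4.83 and 4.64 CPM). Neither passed, at 0.99 ± 0.36 (edgeR adjusted p 0.128) and 0.53 ± 0.26 (0.26). Fat2 stood at 85.8, 80.4 and 78.7 CPM against 50.4 and 24.8 CPM (1.06 ± 0.67, edgeR adjusted p 0.384), and Neurod1 under 1 CPM in both arms (-2.09 ± 1.20, 0.332). Atoh1, Barhl1, Nhlh1 and En1 were too low to be tested. Among the 11 other granule lineage genes tested, Lhx9 and Pax6, homeobox factors of the rhombic lip and its progeny, rose (4.27 ± 0.54 and 2.29 ± 0.34, edgeR adjusted p 0.0027 and 0.00494) and Boc, a coreceptor for Sonic hedgehog, fell (-1.16 ± 0.28, 0.0352). Of 8 maturing granule neuron genes 0 passed. Of 8 Sonic hedgehog target genes Sfrp1, a secreted Wnt antagonist, rose from a mean of 1.81 to 52.4 CPM (4.73 ± 0.26, edgeR adjusted p 4.25e-05), as did Ccnd1 (0.71 ± 0.19, 0.0489).

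Ezh2 overexpression changed 0 of the 6 tested members (edgeR, 0 at an unadjusted p under 0.05; 0 with DESeq2 and 0 with limma-voom), beside 0.00566% of all genes. En2 stood at 0.344, 0.254 and 0.237 CPM, above both Cas9 libraries (1.05 ± 0.40, edgeR adjusted p 1.0). The rescue changed 1 of the 6 against Ezh2 KO, beside 1.21% of all genes. En2 stood at 0.567 and 0.71 CPM in its 2 libraries, under the 3.95 to 6.26 CPM of Ezh2 KO and above the 0.128 and 0.129 CPM of Cas9. It fell by 3.03 ± 0.34 on the log2 scale (edgeR adjusted p 0.00697), and the call was lost without either rescue library (0.0707 and 0.0704) and with all 12 libraries as labelled (0.0761). Zic2 was also lower in every rescue library, at 2.63 and 5.05 CPM (-0.86 ± 0.27, edgeR adjusted p 0.146). Mfap4 was higher than in Ezh2 KO, at 34.8 and 33.7 CPM (0.48 ± 0.23, edgeR adjusted p 0.313), with the fibroblast and mural markers at 2551 and 3342 CPM. Of the other granule lineage genes 0 of 11 and of the maturing ones 0 of 8 passed, and of the Sonic hedgehog targets Sfrp1 fell by 1.47 ± 0.21 (edgeR adjusted p 0.0171). The rescue and the Cas9 comparisons share the Ezh2 KO libraries.

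**Figure D4:**
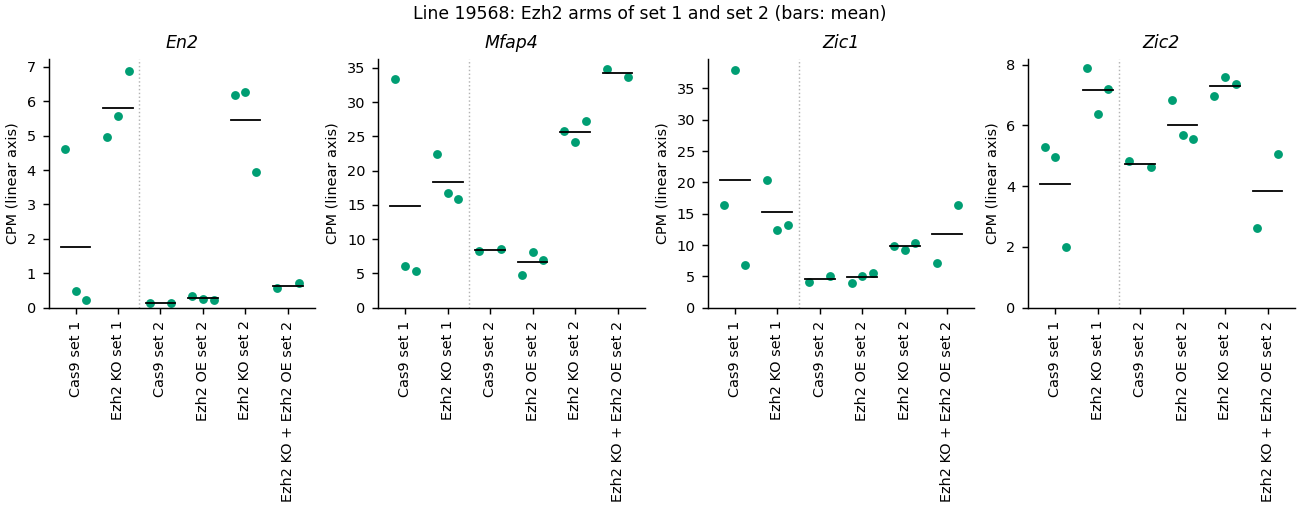
En2, Mfap4, Zic1 and Zic2 in CPM (linear axes) in the Ezh2 arms of line 19568, 1 point per library with a bar at the mean, set 1 left and set 2 right of the dotted line, without the 2 doubted libraries. En2 stands at 3.95 to 6.26 CPM in Ezh2 KO of set 2, at 0.128 and 0.129 CPM in Cas9 and at 0.567 and 0.71 CPM in the rescue.

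Overexpression of Gfi1, a zinc finger repressor, in line 19251 changed 4 of the 9 tested members, beside 24.6% of all genes. En1, Barhl1 and Zic1 fell and Zic2 rose. The median was -1.27 for the members and -0.03 for all genes. The share of all genes moved with Gfi1 OE replicate 5, the library with 71.6% not aligned. Without it 5738 genes passed in place of 4187. Leaving out each library gave 4 to 5 members. En1 ranged from 4.65 to 11.9 CPM in the 6 controls (median 10.4) and from 0.0317 to 1.49 CPM in the 8 Gfi1 OE libraries (median 0.208). No library overlapped, and it fell by 4.66 ± 0.72 on the log2 scale (edgeR adjusted p 0.00031). Zic1 ranged from 66.1 to 176 CPM (median 111) in controls and from 20.1 to 47.5 CPM (median 34.0) with Gfi1, also without overlap (-1.75 ± 0.25, edgeR adjusted p 0.000183).

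Zic2 moved against its relative. It ranged from 13.8 to 33.9 CPM in controls (median 19.7) and from 15.6 to 58.3 CPM with Gfi1 (median 46.7), with overlap through the shallowest library, replicate 5, at 15.6 CPM from 2687641 counts (log2 change 1.15 ± 0.25, edgeR adjusted p 0.00362). Barhl1 ranged from 0.889 to 30.6 CPM in controls (median 2.34) and from 0.0734 to 0.937 CPM with Gfi1 (median 0.673). It fell by 3.80 ± 0.85 on the log2 scale (edgeR adjusted p 0.00468), and its change was -2.504 without control replicate 2, which held the 30.6 CPM (adjusted p 0.0166). Atoh1 did not pass, at -0.26 ± 1.17 (edgeR adjusted p 0.898), nor did Neurod1 at -1.27 ± 0.93 (0.348) or Nhlh1 at -0.91 ± 0.87 (0.487). The estimate for Atoh1 was 0.88 without control replicate 2 and -1.64 without Gfi1 OE replicate 7. En2 stood at 25.8 to 38.5 CPM (median 28.8) and 17.5 to 53.6 CPM (median 22.7), a change of -0.03 ± 0.29 (edgeR adjusted p 0.949). Mfap4 at -1.28 ± 0.69 (edgeR adjusted p 0.198) passed without Gfi1 OE replicate 7 (-1.94, 0.0352), and Fat2 was too low to be tested.

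Among the other granule lineage genes 7 of 13 tested fell with Gfi1 and 1 rose, with a median of -1.65. Olig3 fell by 5.32 ± 1.36 (edgeR adjusted p 0.0104), Meis1, a homeobox factor of the granule lineage, by 4.57 ± 0.59 (8.31e-05), Pax6 by 3.37 ± 0.72 (0.00333) and Lhx9 by 3.27 ± 0.97 (0.0225), while Zic5, a relative of Zic2, rose by 0.80 ± 0.25 (0.0294). Of 9 maturing granule neuron genes Grin2c, a glutamate receptor subunit, rose and Etv1 fell. Of 7 Sonic hedgehog targets 1 fell, Ccnd1 (-1.42 ± 0.34, edgeR adjusted p 0.00676). Gli1 was uneven inside the Gfi1 OE group, at 237 CPM in replicate 7 and 65.9 CPM in replicate 5 against 3.15 to 16.2 CPM in the others. Replicate 7 is the library with the 34.0 CPM of Atoh1 and 101 CPM of Mfap4. Myc RNA averaged 521 CPM with Gfi1 and 964 CPM in controls (edgeR adjusted p 0.0361). Each of the 8 Gfi1 OE titles gives 8 as its replicate number.

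The WT-labelled libraries differed from the controls of line 19251 in all 10 members, 9 lower and 1 higher, beside 33.7% of all genes, with a median of -6.61 for the members and -0.08 for all genes. For 9 members no library overlapped, but the share of all genes without overlap was not counted. Fat2 stood at 174 to 340 CPM against 0.0693 to 0.779 CPM (9.84 ± 0.55, edgeR adjusted p 2.45e-06). Atoh1 was at least 408-fold lower and Nhlh1 at least 754-fold lower, taking a floor of 3 counts over the group for its 0 counts (edgeR adjusted p 0.0106 and 0.0183). These folds are of counts pooled over a group, and control replicate 2 held 1837 of the 2564 Atoh1 counts; without it the bounds were 158-fold for Atoh1 and 261-fold for Nhlh1. En1, with 2 counts over the group, was 500-fold lower (95% counting interval 138 to 4130, edgeR adjusted p 1.13e-05) and Barhl1, with 3 counts, 367-fold lower (125 to 1780, adjusted p 0.00421), or 126-fold lower (42.9 to 612) without control replicate 2. Neurod1 showed a log2 difference of -7.78 ± 1.86 (edgeR adjusted p 0.01; 0.103 with limma-voom), Zic1 of -5.48 ± 0.52 (5.73e-05) and En2 of -2.99 ± 0.22 (9.54e-06). Zic2 at -0.99 ± 0.27 (edgeR adjusted p 0.0181) was lost in 4 of 17 other settings and Mfap4 at -1.89 ± 0.67 (0.0497) in 11 of 17.

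Against the Gfi1 OE libraries, 8 of 9 tested members differed, 7 lower and 1 higher, beside 48.7% of all genes, with a median of -3.77 for the members and -0.08 for all genes. Without Gfi1 OE replicate 5, 11221 genes passed in place of 8413. Leaving out each library gave 8 to 9 members. Atoh1 was at least 177-fold lower and Nhlh1 at least 269-fold lower (edgeR adjusted p 0.0157 and 5.68e-05). Gfi1 OE replicate 7 held 1290 of the 1600 Atoh1 counts of its group, and without it the bound for Atoh1 was 39.3-fold. Atoh1 did not pass with limma-voom (adjusted p 0.0548). Zic2 was lower in every library (-2.17 ± 0.24, edgeR adjusted p 1.31e-05), as were Zic1 (-3.77 ± 0.37, 4.58e-06), Neurod1 (-6.53 ± 1.13, 0.000406) and En2 (-2.97 ± 0.39, 4.84e-05). Barhl1 was lower (3 counts against 126, with a 95% counting interval of the fold of 4.67 to 68.6, edgeR adjusted p 0.00541). Fat2 was higher by 9.34 ± 0.86 (edgeR adjusted p 2.56e-06), Mfap4 did not pass (-0.65 ± 0.70, 0.461), and En1 was too low to be tested. The 2 comparisons share the 4 libraries, whose genotype, source, title numbers and treatment differ together from those of line 19251 and cannot be told apart.

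Of the other granule lineage genes 9 of 13 were lower and 0 higher than in the controls, and 5 of 12 lower and 5 higher than with Gfi1 OE. Insm1 was lower than in both (-9.64 ± 1.17 and -8.90 ± 0.70, edgeR adjusted p 0.000236 and 8.55e-07). Meis1 was lower than in the controls (-2.37 ± 0.38, edgeR adjusted p 0.00121) and higher than with Gfi1 OE (2.15 ± 0.59, 0.00855). Of the maturing genes 5 of 8 were lower than in the controls and 4 of 9 lower than with Gfi1 OE, and 0 higher in either. Of the 8 Sonic hedgehog targets 6 were higher than in the controls and 7 higher than with Gfi1 OE. Gli1 stood at 435 to 498 CPM, Ptch1 at 828 to 972 CPM, and Sfrp1 averaged 46.6 CPM against 0.482 CPM in the controls (6.96 ± 0.70, edgeR adjusted p 7.85e-05). The fibroblast and mural markers, all 8 present, summed to 1007 to 1485 CPM in these libraries, 1106 to 2819 CPM in line 19568 of set 1 and 114 to 806 CPM in the controls of line 19251. Their part in the differences was not tested.

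The members were last compared by their profile, the mean of log2(CPM + 0.5) in each of the 13 groups, centred per gene but not scaled. A distance between profiles thus counts the size of a swing as well as its shape. The offset draws levels far under 0.5 CPM together, as for Atoh1, Barhl1 and Nhlh1, whose lowest group mean was -1.0. The root mean square (RMS) distance between 2 genes was ranked over 14370 genes with a group mean of at least 1 CPM. Left out were genes missing from any file and symbols of predicted-gene, RIKEN, clone or microRNA form. Symbols of a capital letter followed by digits were left out too. The ranking is a description of 13 groups, several of which share a line. Barhl1 was the second nearest of these genes to Atoh1, at 0.41. The nearest was Dclk2, at 0.37, followed by Luzp4 (0.47), Ankrd34b (0.48), Samd12 (0.51) and Eml6 (0.51). Dclk2, a kinase related to doublecortin, averaged 55.7 CPM in 19251 Cas9, 20.2 CPM in 19554 Cas9, 11.52 CPM in 19568 Cas9 of set 1 and 5.61 CPM in the WT-labelled libraries. En1 came 243rd at 0.83 and Zic1 1046th at 1.03. Neurod1 lay far off at 1.97 (rank 13496) and Fat2 farther at 4.31 (rank 14362). Neurod1 ranged over 7.565 log2 units between groups and Atoh1 over 3.865, so its distance does not by itself mean another order of groups. Among members Barhl1 and En1 (0.60) and Neurod1 and Nhlh1 (0.66) were close pairs beside Atoh1 and Barhl1. The order rests on single libraries: without 19251 Cas9 replicate 1 1 of the 5 nearest genes outside the members stayed among the nearest 5, and likewise without 19554 Cas9 replicate 1.

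**Figure D5:**
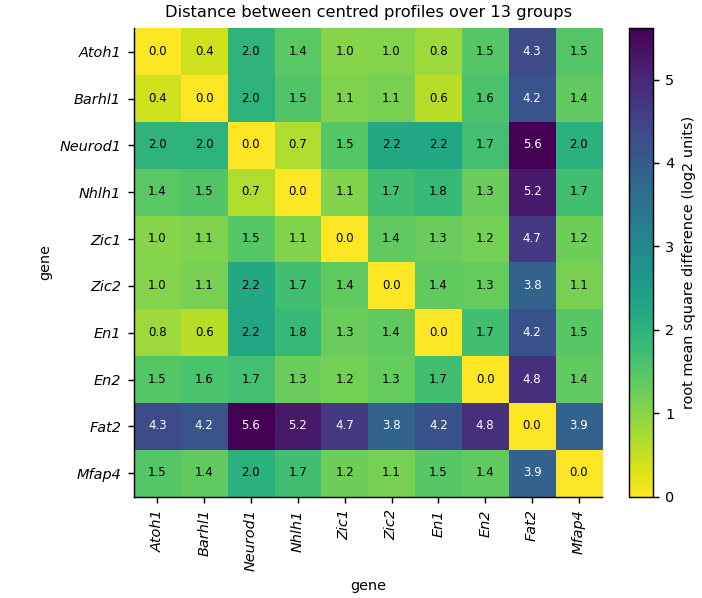
RMS distance on the log2 scale between the centred profiles of the 10 members over 13 groups, as a matrix shaded by distance. Atoh1 and Barhl1 (0.41), Barhl1 and En1 (0.60) and Neurod1 and Nhlh1 (0.66) are close pairs, and Fat2 is far from the others, at 4.31 from Atoh1.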

How the data were processed

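RNA was extracted with Trizol and sequenced as stranded, paired-end total RNA libraries, per the labels' protocols. The deposited values are raw counts of reads per gene, 1 file per library, and the submitters' processing notes name CASAVA 1.7, STAR, BWA, HTSeq, limma, R 3.2.3 and build mm9 with no role or order. Lines of the files that name no gene were kept out of all totals: no feature (19.6% to 42.6% of all lines summed), ambiguous (0.438% to 2.26%) and not aligned (2.70% to 71.6%).

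Samples were grouped by their titles and descriptions. CPM was computed from the counts on genes. Tests used edgeR 4.0.16 in R 4.3.3 (TMM, its low-count filter, quasi-likelihood test, Benjamini-Hochberg adjustment over all genes tested, threshold 0.05) on 18 libraries for set 1, 10 for set 2, 14 for Gfi1 OE against control, and 12 and 10 for the WT-labelled libraries against Gfi1 OE and control. DESeq2 1.42.0, limma-voom (limma 3.58.1), other scalings and filters, a replicate block and leaving out each library were alternatives. The fits were tested on simulated data. No pair of libraries agreed within sampling noise (79 pairs within groups, lowest chi-square per degree of freedom 7.43). Whether replicate numbers pair libraries was checked by the correlation of same-numbered libraries' deviations from their group means. Within line 19554 (0.126 to 0.311) and line 19568 of set 1 (0.228 to 0.499) all 3 pairs were over 0.1. Differently numbered libraries were not set beside them, so that a pairing of Cas9 with Ezh2 KO there is possible but not shown. In line 19251 no pair was over 0.1 (-0.223 to -0.016). Not every pair was in set 2 (-0.658 to 0.497) or between the WT-labelled libraries and the controls (0.001 to 0.256). Folds without single libraries were added after seeing the data. The members and gene lists were chosen with earlier results of these data known. Named genes are the 10 members, Ezh2, Gfi1 and Myc, called genes of the lists with the largest changes, and the 5 profiles nearest to Atoh1. Promoter windows are of GRCm38.p6, not of mm9, and no coordinates were converted.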

Additional observations from a re-analysis of the deposited data

Results flagged for a closer look

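A library stood far from the others of its group in 9 of 30 cases tested, each a member's values in 1 group. Chance gives about 1 in 20 for independent cases. Members counted in the same libraries are not independent, so that the 9 cannot be set against that rate. Control replicate 2 of line 19251 held 32.52 CPM of Atoh1, 30.58 CPM of Barhl1 and 0.779 CPM of Fat2, each the highest of the 6 controls. Control replicate 6 was lowest in En1, at 4.649 CPM, and control replicate 5 highest in En2, at 38.49 CPM. Among the 8 Gfi1 OE libraries, replicate 7 was highest in Atoh1 (34.02 CPM), replicate 4 in Neurod1 (29.66 CPM), and replicate 5, the shallowest, in Fat2 (4.837 CPM) and En2 (53.58 CPM).

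The library labelled 19568 Cas9 set 2 replicate 1, left out of the comparisons of set 2 except where all 12 libraries were taken as labelled, held 7.352 CPM of Zic1, 289.2 CPM of Fat2, 47.84 CPM of Mfap4 and 0.7911 CPM of En2, all above the other Cas9 libraries of set 2. The 2 rescue libraries used held 7.209 and 16.44 CPM of Zic1 and 108.4 and 321.3 CPM of Fat2. They held 33.73 and 34.79 CPM of Mfap4 and 0.567 and 0.7097 CPM of En2. Whether the labels of the 2 doubted libraries were exchanged was not tested. The values of the library labelled Cas9 replicate 1 were not tested on their own.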

How the results depend on the processing

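No member's called change reversed under any alternative run. The lines were compared within each arm in the fit of all 18 libraries of set 1. In the Cas9 arm, 0 members were called for line 19568 against 19251, 2 against 19554 and 0 for 19554 against 19251. Over all genes 557, 641 and 54 were called there. In the Ezh2 KO arm the members called were 1, 2 and 0, beside 433, 557 and 6 genes. limma-voom called 3 members in line 19568 against 19554, beside 2083 genes in all. DESeq2 called 3 members in 19554 against 19251, beside 1184 genes against 98 in the main fit. It called 2 members in the rescue, beside 1058 genes against 213. Without the low-count filter, 4, 1 and 2 members were called in Ezh2 KO, Ezh2 OE and the rescue of set 2. Over all genes 2988, 146 and 1761 were called there, against 1609, 1 and 213 in the main fits. With all 12 libraries as labelled, 1 member was called in Ezh2 KO and 0 in the rescue, beside 171 and 69 genes in all. Leaving out each library gave 1 to 2 in Ezh2 KO and 0 to 1 in the rescue, and 7 to 10, 4 to 8 and 1 to 1 in the line comparisons in the same order. For the profiles, an offset of 1 CPM kept 3 of the 5 nearest genes, and leaving out each library, added after seeing the data, kept 1 to 5.

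The replicate block gave 8, 4 and 1 members in the line comparisons, beside 1382, 1590 and 31 genes in all. In set 2 it gave 2, 0 and 1 members, beside 887, 1 and 79 genes. For the WT-labelled libraries against control it gave 9 members, beside 4605 genes, and Zic2 was lost (edgeR adjusted p 0.102). Over all genes the block moved the calls in set 1 from 110 to 58 and in Ezh2 KO of set 2 from 1609 to 887, while DESeq2 called 459 in set 1. Line calls of Atoh1 were lost without 19251 Cas9 replicate 2 (adjusted p 0.0524) and without 19568 Ezh2 KO set 1 replicate 1 (0.0502). The causes were not tested. Depth limits the members near 0 counts: folds against 0 counts are bounds, and those against 2 or 3 counts have wide counting intervals.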
